A study of Mus musculus with 11 samples.

Results

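Lungs of C57BL/6 mice that had received naphthalene and then osimertinib were compared with lungs of untreated control mice. Total RNA was sequenced after removal of ribosomal RNA, and the groups compared held 8 of the 11 samples of the series: osimertinib 1 to 5 and control 1 to 3. The control mice had neither agent. The osimertinib mice carried both, so the effects of naphthalene and of osimertinib cannot be told apart in this comparison. The remaining 3 samples came from mice given naphthalene alone, and their values are set beside the others without a test of that group. They did enter the gene filter and the main fits, and so the estimate of spread behind the p-values. Their differences from control share the control samples with the osimertinib comparison. The labels give no dose, time, age, sex or batch, and do not say whether samples of a group came from separate animals, so every p-value below reflects only how much these samples vary, part of which may be technical.

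Osimertinib blocks the kinase of the epidermal growth factor receptor (EGFR), and lung inflammation (pneumonitis) is a known adverse effect of it. Naphthalene is turned into toxic metabolites by Cyp2f2, a cytochrome P450 of the club cell, and so injures the club cells that line the small airways. The lung repairs such damage with airway and alveolar progenitors, macrophages and matrix-producing fibroblasts, and matrix is built from collagens and elastin and remodelled by metalloproteinases and cathepsins. The title of the series places naive CD4+ T cells in osimertinib pneumonitis, so lymphocyte genes are described beside those of the epithelium and the matrix.

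The deposited values gave back 9851402 to 11825048 gene reads in the control samples and 5284292 to 13009975 in the osimertinib samples. Both extremes of the osimertinib group stood apart. In osimertinib 2 the unnamed gene ENSMUSG00000119584 took 43.9% of the reads (95% Wilson interval 43.8 to 43.9, counting error only), leaving 2965328 reads for the rest, and the same gene took 46.8% to 60.3% in the naphthalene samples and at most 0.0337% elsewhere. In osimertinib 3 the gene ENSMUSG00000118841 took 16.7% of the reads, against 1.58% to 4.38% in the other samples compared, and this sample lay farthest out on the first principal component. Values are therefore given for osimertinib 1 to 5 and again for osimertinib 1, 4 and 5, which have neither feature. The second value stands in square brackets or is named as that of the 3 samples, and a statement on overlap that names no set is for all 5. The tissue label held against its markers: Sftpc (surfactant of alveolar type 2 cells) was 5939.6 to 6922 in control and 6977 to 17256 in osimertinib samples, Ager (alveolar type 1 cells) 756 to 820.3 and 577 to 883, and Scgb1a1 (club cells) 10078 to 12579 and 1737 to 7664. These values are in normalised CPM (reads scaled to library size). Differences are osimertinib minus control in log2(value + 1), a scale that shrinks the differences of genes with low values.

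Of 16225 genes with a mean of at least 1 over the 11 samples, 1 passed an adjusted p of 0.05 in limma, which is 0.00616% of those tested, and 2 passed with osimertinib 1, 4 and 5 (0.0123%). At an unadjusted p under 0.05 there were 374 genes higher and 405 lower, and with the 3 samples 299 and 333. The median gene differed by −0.01 with either set of samples. When samples were scaled to equal totals it moved to −0.35 with all 5 samples and to −0.0058 with the 3, so values under equal totals below are for all 5 and are also given relative to the median gene of that setting. Because limma called so few genes, 2 further counts are used below. A gene was counted as not overlapping when all osimertinib values lay on one side of all control values, which held for 472 genes above (2.91%) and 556 below (3.43%), and for 1086 above (6.69%) and 1370 below (8.44%) with osimertinib 1, 4 and 5, where fewer values have to clear the controls. DESeq2, run on the reads recovered from the values, gave 42 genes higher (0.26% of 16142 with an adjusted p) and 33 lower (0.204%), and with the 3 samples 52 higher (0.321% of 16212) and 36 lower (0.222%), with 47 genes called in both sets. edgeR called 1 gene and, with the 3 samples, 4.

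**Figure D1:**
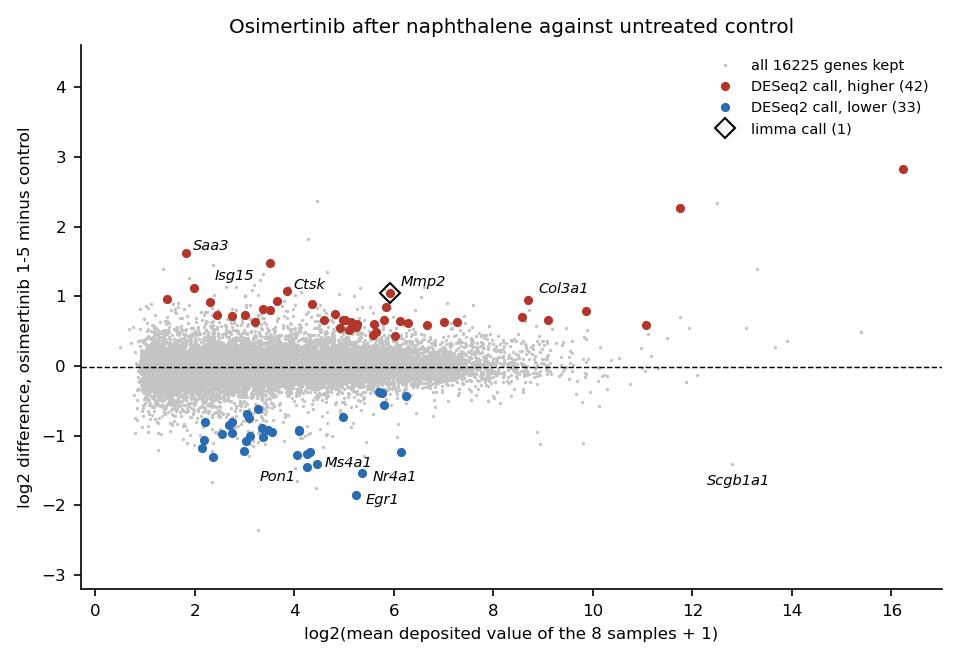
Difference between osimertinib 1 to 5 and control (log2(value + 1)) against the mean level for the 16225 genes tested, in gray, with the 42 genes higher and 33 lower in DESeq2 in red and blue and the limma call as a diamond. The dashed line marks the median gene at −0.01, and the red points farthest to the right are ENSMUSG00000119584 (2.83) and mt-Rnr1 (2.27), both highest in osimertinib 2 among the osimertinib samples.

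The gene called by limma was Mmp2, the gelatinase that cleaves denatured collagen and basement membrane. Its values were 35.5, 35.6 and 35.2 in control samples and 79.1, 67.2, 82.7, 67.3 and 77.7 in osimertinib 1 to 5. The controls lay within 1 unit of each other and every osimertinib sample stood well above them, with osimertinib 2 the lowest and osimertinib 3 the highest of the 5. The mean was 35.4 ± 0.243 (SD, n = 3) in control and 74.8 ± 7.11 (SD, n = 5) in osimertinib samples. On the log2 scale Mmp2 rose by 1.05 (SE 0.11, limma adjusted p = 0.0113), and by 1.05 (SE 0.12, limma adjusted p = 0.0187) with osimertinib 1, 4 and 5. DESeq2 gave adjusted p-values of 8.55e-18 and 2.58e-16, and edgeR 0.00593 and 0.003096. The naphthalene samples held 51.1, 54.2 and 39.9. In bulk lung RNA, more cells that express a gene and more RNA per cell cannot be told apart, here and in every result below. The limma call was lost when samples were scaled to equal totals (0.69, adjusted p = 0.607), where the median gene itself lay at −0.35. It was also lost when any 1 control sample, osimertinib 1 or osimertinib 5 was left out, with adjusted p-values of 0.0617 to 0.157, and without the variance trend (adjusted p = 0.0687). Over all of these settings the difference stayed above 0. Without naphthalene 1, 2 or 3 the limma adjusted p was 0.0337, 0.0170 and 0.00288, and with only control and osimertinib samples it was 0.0137. The call with osimertinib 1, 4 and 5 was also lost when any 1 of the 6 samples was left out, with equal totals and without the variance trend. Blocking by replicate number lost the call in both sets.

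The fibrillar collagens and other matrix genes lay mostly higher in the osimertinib samples. Of 20 listed genes, 17 had a difference above 0, 4 stood above every control (against 2.91% of all genes), and the list median was 0.26, against −0.01 for the median gene. With osimertinib 1, 4 and 5, 12 of the 20 stood above every control (against 6.69% of all genes) and the median was 0.40. None stood below every control in either set. Scaled to equal totals, the list median was −0.09, which is 0.26 above the median gene. DESeq2 called 2 of the genes higher, Col3a1 and Col5a2, and with the 3 samples also Col14a1, where 0.26% and 0.321% of all genes were called higher. Without control 1, which had the lowest type I collagen, the median over all 5 samples was 0.11. A list of fibroblast and lipofibroblast genes, which holds some matrix genes such as Dpt and Col13a1, had a median of −0.01 and 0.02, with summed levels of 4789 to 5158 in control and 4734 to 5378 in osimertinib samples.

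Col3a1, the chain of type III collagen, read 242, 269 and 273 in control and 495, 475, 445, 489 and 627 in osimertinib samples, and 326, 354 and 259 after naphthalene alone. Every osimertinib sample was above every control, with osimertinib 3 the lowest of the 5. The difference was 0.94 (SE 0.13, limma adjusted p = 0.111), or 1.03 (SE 0.13, limma adjusted p = 0.0631) with osimertinib 1, 4 and 5, and Col3a1 rose in DESeq2 (adjusted p = 4.63e-07 and 1.43e-08). Col5a2, a chain of type V collagen that assembles with the major fibrils, read 48.8, 47.7 and 55.3 and 72.7, 82.1, 75.6, 76.7 and 93.2, again without overlap, and rose in DESeq2 (adjusted p = 0.00017 and 0.00066, with limma differences of 0.65 and 0.66). Col14a1, a collagen of fibril surfaces, differed by 0.31 with all 5 samples and by 0.43 with the 3, where DESeq2 called it (adjusted p = 0.00519). Its values were 36.5, 36.7 and 35.7 and 43.8, 46.9, 34.1, 53.5 and 50.8, so that osimertinib 3 lay below the controls and the other osimertinib samples above them. With equal totals the difference over all 5 was −0.05, or 0.30 relative to the median gene.

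Col1a1, the main chain of type I collagen, read 114, 195 and 211 in control and 233, 250.4, 105, 295 and 322 in osimertinib samples. Osimertinib 3 was below every control, and the other 4 osimertinib samples were above every control, of which control 1 was lowest. The difference was 0.43 (SE 0.37) with all samples and 0.74 (SE 0.30) with the 3, with limma adjusted p-values of 1.00 and 1.00. Fbn1 (fibrillin of the microfibrils) and Sparc (a collagen-binding matrix protein) stood above every control in both sets, by 0.36 [0.45] and 0.34 [0.34]. With equal totals these were −0.01 and −0.04, or 0.33 and 0.31 relative to the median gene. Fn1 (fibronectin) differed by 0.25 [0.15] (SE 0.18 [0.20]), with overlapping groups (−0.12 with equal totals, 0.23 relative to the median gene).

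Among 18 genes of elastic fibres and lysyl oxidases, 4 stood above every control and none below (against 2.91% and 3.43% of all genes), and with osimertinib 1, 4 and 5 the counts were 7 and 0 (against 6.69% and 8.44%). The list medians were 0.11 and 0.16, and −0.26 with equal totals, which is 0.09 above the median gene of that setting. Eln (elastin) read 85.9, 129 and 166 in control and 216, 265, 236, 182 and 244 in osimertinib samples. The groups did not overlap, but the control samples themselves differed widely, and the difference of 0.88 [0.79] (SE 0.24 [0.27]) did not pass in limma (adjusted p = 0.601 [1.00]) or in DESeq2 (adjusted p = 0.124 [0.358]). Lox, the enzyme that cross-links collagen and elastin, read 34.2, 35.6 and 39.4 and 58.3, 99.5, 61.9, 52.01 and 67.4. All 5 osimertinib samples were above the controls, and Lox rose in DESeq2 (adjusted p = 0.0112 and 0.000843) with limma differences of 0.85 and 0.68. Mfap5, a microfibril glycoprotein, also stood above every control, by 0.60, and by 0.23 with the 3 samples.

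Among the proteases that cut matrix, single genes stood apart while the list median stayed near 0. Of 16 metalloproteinase and TIMP genes, 5 stood above every control and none below, and 6 and 1 with the 3 samples (all genes: 2.91% and 3.43%, and 6.69% and 8.44%), while the list median was 0.10 and 0.11, and −0.26 with equal totals (0.08 relative to the median gene). The 5 were Mmp2, Adamts2, Mmp19, Timp1 and Mmp12. Adamts2, which removes the amino-terminal propeptide of procollagens, read 17.8, 24.2 and 26.1 in control and 38.01, 32.8, 32.6, 36.5 and 41.7 in osimertinib samples and rose in DESeq2 (adjusted p = 0.0154 and 0.00476, with limma differences of 0.67 and 0.76). Mmp19 read 11.02, 13.4 and 12.2 and 17.6, 21.97, 14.3, 19.1 and 18.8, and rose in DESeq2 with the 3 samples (adjusted p = 0.00438) but did not pass with all 5 (adjusted p = 0.0696). Mmp12, the elastase of macrophages, read 3.58, 3.27 and 3.74 and 24.4, 6.35, 12.03, 6.05 and 5.397. It had the largest difference of the list, 1.17 [1.21] (SE 0.39 [0.44]), and the controls were close together, but osimertinib samples ran from 5.397 to 24.4 with osimertinib 1 highest, and neither test passed (limma adjusted p = 0.7604 [1.00], DESeq2 0.0816 [0.0835]).

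The cathepsins, proteases of the lysosome, lay higher. Of 12 genes, 6 stood above every control in both sets of samples (against 2.91% and 6.69% of all genes) and none below. The list medians were 0.31 and 0.23. The median was −0.05 with equal totals, or 0.30 above the median gene there. Ctsk, the collagen- and elastin-degrading cathepsin K, read 6.76, 7.53 and 7.75 in control and 18.9, 13.8, 24.2, 18.1 and 11.1 in osimertinib samples. Every osimertinib sample was above the controls, and Ctsk rose in DESeq2 (adjusted p = 0.000365 and 0.000843) with limma differences of 1.08 and 1.0 (adjusted p = 0.313 and 0.3999). Ctss, the cathepsin of antigen-presenting cells that trims the invariant chain, read 72.6, 76.5 and 78.2 and 124, 131, 121, 101 and 102 and rose in DESeq2 (adjusted p = 0.00133 and 0.00632, with limma differences of 0.59 and 0.51). Ctsd, the lysosomal aspartic protease, stood above every control by 0.65 and 0.33. Ctsc, which activates granule proteases, differed by 0.39 [0.31] with overlapping groups.

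**Figure D2:**
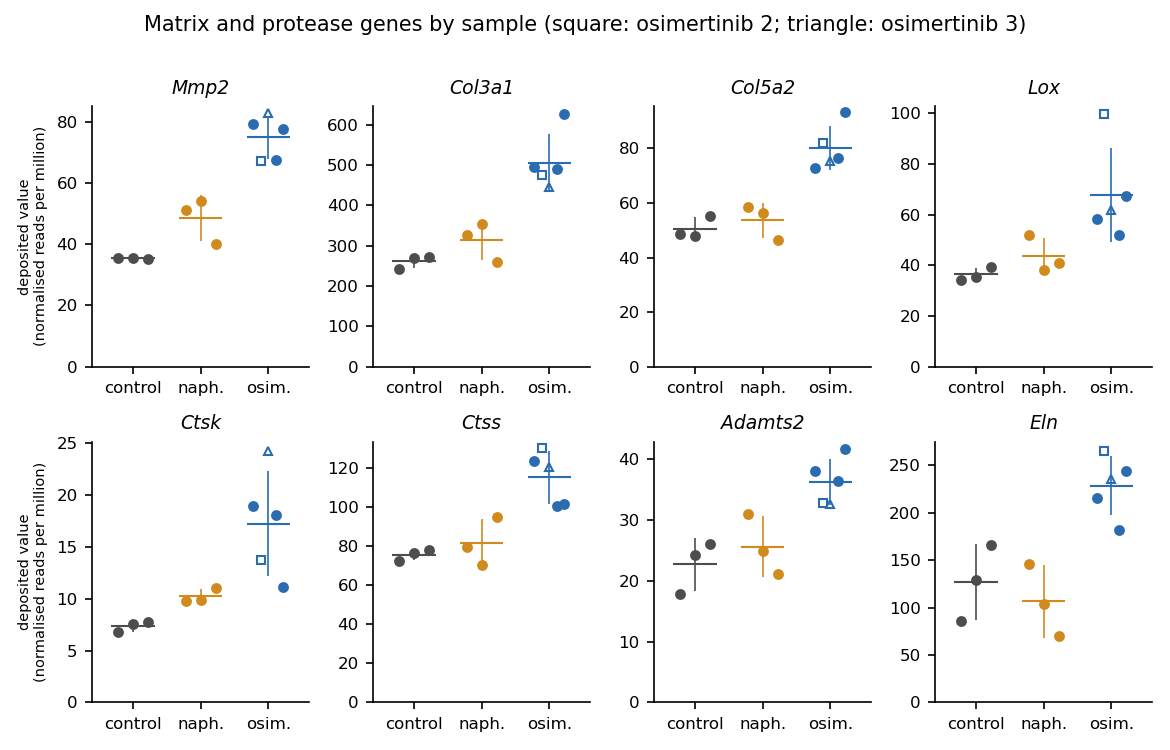
Normalised CPM of Mmp2, Col3a1, Col5a2, Lox, Ctsk, Ctss, Adamts2 and Eln in each control, naphthalene and osimertinib sample, with the group mean as a line and the SD as a bar. Osimertinib 2 is drawn as a square and osimertinib 3 as a triangle, and in all 8 genes the 5 osimertinib samples sit above the 3 controls.

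Genes of TGF-beta signalling, which drives collagen synthesis in fibroblasts, had a list median near 0. Of 16 genes 1 stood above every control, Tgfbi (a matrix protein induced by TGF-beta), against 2.91% of all genes, and 4 with the 3 samples, against 6.69%. None stood below, and the list medians were 0.02 and 0.11, and −0.34 with equal totals (0.01 relative to the median gene). Ccn2, a matricellular target of TGF-beta, read 40.6, 51.3 and 49.995 in control and 71.1, 50.3, 64.95, 58.5 and 82.96 in osimertinib samples, a difference of 0.45 [0.57] (SE 0.15 [0.15], limma adjusted p = 0.761 [0.639]) in which all osimertinib samples except osimertinib 2 were above every control. Tgfbr1, a receptor, differed by 0.27 [0.30] (−0.09 with equal totals, 0.25 relative to the median gene). Without control 1 the list median was −0.040. Tgfbi read 34.5, 41.8 and 38.1 and 44.7, 46.6, 75.2, 48.5 and 42.4, with osimertinib 3 far above the others. Eng, a coreceptor of endothelial cells, differed by −0.29 and −0.16.

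B cell genes had the lowest median of the 32 lists described. Of 16 genes, 14 stood below every control sample and none above, against 3.43% and 2.91% of all genes tested. With osimertinib 1, 4 and 5 the counts were 15 and 0, against 8.44% and 6.69%. All 16 differences were below 0. The list median was −1.10, −1.12 with the 3 samples, and −1.14 relative to the median gene under equal totals. The summed level of the list was 435, 643 and 312 in control 1 to 3 and 233, 249, 284, 251 and 134 in osimertinib 1 to 5, with a wide range among the controls and every osimertinib sum below every control sum. DESeq2 called 6 of the genes lower, and 3 with the 3 samples, against 0.204% and 0.222% of all genes. The sums after naphthalene alone were 398, 740.5 and 363, and the list median there was 0.03. Genes of other lymphoid tissue were uneven among the controls: Rag1, of lymphocyte precursors, read 0, 0.0655 and 10.8 in control and 0 to 0.865 in osimertinib samples, and Cxcl13, the follicle chemokine, 0.682, 17.3 and 0.936 and 0.382 to 2.67. The B cell median was −0.92 without control 2, −1.23 without control 3 and −1.07 without control 1.

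Cd79a, the signalling chain of the B cell receptor, read 32.4, 33.5 and 20.2 in control and 15.1, 11.6, 12.4, 12.4 and 6.06 in osimertinib samples, with naphthalene samples at 21.8, 31.6 and 23.4. The groups did not overlap, and Cd79a fell in DESeq2 (adjusted p = 0.00378 and 0.0107) with limma differences of −1.26 (SE 0.25, adjusted p = 0.313) and −1.33 (SE 0.29, adjusted p = 0.518). Ms4a1, which encodes CD20, read 32.6, 42.04 and 27.5 and 15.2, 10.9, 7.66, 22.4 and 8.73. It fell in DESeq2 with all 5 samples (adjusted p = 0.0242) and did not pass with the 3 (adjusted p = 0.0829), with limma differences of −1.41 and −1.16. Blk, a kinase of the same receptor, differed by −0.96 and −0.96, and fell in DESeq2 with all 5 samples alone (adjusted p = 0.0224 and 0.0541).

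Genes of the B lineage named by rank were picked for low values and a small p in these same data. Their direction was thus fixed by the choice and adds no support, and Spib also belongs to the B cell list. Cxcr5, the receptor that guides B cells into follicles, read 12.05, 13.4 and 8.29 in control and 5.11, 6.09, 3.39, 4.66 and 2.399 in osimertinib samples and fell in DESeq2 (adjusted p = 0.00476 and 0.00365, with limma differences of −1.22 and −1.30). Siglecg, an inhibitory sialic acid receptor of B cells, fell in DESeq2 from 11.4 ± 2.25 to 5.28 ± 1.31 (mean ± SD, n = 3 and n = 5, adjusted p = 0.00947 and 0.0149, with limma differences of −1.0 and −1.05). Ly6d, a surface marker of the B lineage, fell in DESeq2 (adjusted p = 0.0194 and 0.000951, with limma differences of −1.07 and −1.20), and Spib, a transcription factor of B and plasmacytoid dendritic cells, fell there with the 3 samples (adjusted p = 0.00346) while all 5 gave 0.157. Fcrla, H2-DMb2, Btla and Tnfrsf13b, all expressed in B cells, were named after their values were seen. Each stood below every control and fell in DESeq2 with all 5 samples, with limma differences of −0.98 [−0.87], −0.94 [−0.94], −0.92 [−0.96] and −0.81 [−0.77]. With the 3 samples Fcrla and H2-DMb2 passed in DESeq2 (adjusted p = 0.0435 and 0.0491) and Btla and Tnfrsf13b did not (0.0645 and 0.0829).

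Plasma cell and immunoglobulin genes did not move as one. Of 11 genes 1 stood below every control and none above, 3 with the 3 samples (all genes: 3.43% and 8.44% below). The list median was −0.30 with all 5 samples and −0.30 with the 3. The first of these was 0.017 without control 2 and 0.0052 when same-numbered samples were blocked together. Pou2af1, a B cell coactivator, read 11.2, 17.2 and 8.62 in control and 5.88, 7.15, 2.76, 7.85 and 3.66 in osimertinib samples, without overlap (DESeq2 adjusted p = 0.173 [0.206]). Iglc2, a lambda light chain constant region, read 11.5, 19.4 and 7.42 and 6.95, 6.09, 9.801, 6.19 and 2.399. Igha, the heavy chain of IgA, read 1.25, 3.798 and 6.08 and 32.3, 6.09, 13.5, 3.19 and 8.26. It differed by 1.32 [1.36] (SE 0.65 [0.75]), with osimertinib 4 among the controls and osimertinib 1 far above. Mzb1, a chaperone of antibody-secreting cells, differed by −0.62 and −0.68, with only osimertinib 1, 4 and 5 all below the controls.

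T cell genes also lay lower, with a median nearer to 0. Of 16 pan T cell genes, 5 stood below every control and none above (against 3.43% and 2.91% of all genes). With osimertinib 1, 4 and 5 the counts were 7 and 0 (against 8.44% and 6.69%). The list median was −0.32 with all 5 samples and −0.34 with the 3. All 16 differences were below 0 in both sets. The summed level was 80.1, 81.7 and 78.6 in control and 63.8, 52.9, 66.3, 67.6 and 50.6 in osimertinib samples, without overlap. No gene of the list passed in limma or DESeq2. Lck, the kinase of the T cell receptor, read 9.09, 7.01 and 8.42 and 5.34, 4.76, 5.97, 6.25 and 4.86, a difference of −0.51 (SE 0.17 [0.18], limma adjusted p = 0.7096 [1.00]), and of −0.50 with the 3 samples. Cd3e, a chain of the receptor complex, read 5.06, 6.02 and 5.68 and 4.05, 4.24, 2.05, 4.46 and 2.799, a difference of −0.58 [−0.48] (SE 0.20 [0.18], limma adjusted p = 0.775 [1.00]). Lat, the adaptor downstream of the receptor, differed by −0.52 [−0.50] and Cd28, the costimulatory receptor, by −0.56 [−0.49], both without overlap in either set.

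Of 13 genes of naive T cells, 5 stood below every control and none above in both sets (all genes: 3.43% and 8.44% below). The list medians were −0.37 and −0.22. Tcf7, a transcription factor of naive and memory T cells, read 16.99, 21.6 and 26.4 in control and 15.3, 15.4, 11.4, 16.9 and 11.99 in osimertinib samples, without overlap (−0.57 [−0.52], SE 0.17 [0.18], limma adjusted p = 0.625 [1.00]). Lef1, its partner, read 9.49, 11.4 and 10.4 and 8.93, 7.68, 4.99, 9.18 and 8.26, with a difference of −0.40 [−0.22] (SE 0.17 [0.13]) and no overlap. Ccr7, the lymph node homing receptor also found on migrating dendritic cells, differed by −0.52 and −0.58 without overlap. Bach2 and Satb1, regulators of naive T cells that B cells also express, differed by −0.37 [−0.33] and −0.97 [−0.71], both without overlap. Il7r, the interleukin 7 receptor chain, gave no direction: its values were 8.47, 11.3 and 9.02 and 12.1, 8.74, 7.48, 9.98 and 9.79, a difference of −0.0046 (SE 0.16 [0.15]) that turned positive (0.13) with the 3 samples and in several other settings. Without control 3, which held the Rag1 signal, the naive T cell median was −0.40, the difference of Tcf7 −0.42 and that of Satb1 −0.89. In whole lung RNA the cell of origin of a shared transcript such as Ccr7 or Satb1 cannot be told apart.

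Cd4, also present on macrophages, read 2.33, 3.08 and 4.88 in control and 3.13, 1.85, 1.604, 3.19 and 2.47 in osimertinib samples, a difference of −0.35 (SE 0.31 [0.34], limma adjusted p = 1.00 [1.00]) with overlapping groups, and of −0.14 with the 3 samples. Of the 10 CD4 helper and regulatory genes kept, 1 stood below every control in both sets (all genes: 3.43% and 8.44% below). This was Tbx21, the transcription factor of type 1 helper and NK cells, with 1.93, 1.83 and 1.87 and 1.22, 1.06, 0.356, 1.66 and 1.399. The medians of that list were −0.07 and −0.05, and the first was 0.023 without control 2. Zbtb7b, the factor that fixes the CD4 fate, differed by −0.13 [−0.07], and Il2ra, the high-affinity interleukin 2 receptor chain, by 0.29 [0.13], with osimertinib 2 at 3.71 above all others. Of 15 cytotoxic and NK cell genes 2 stood below every control and none above, 3 with the 3 samples (all genes: 3.43% and 8.44% below). The medians were −0.49 and −0.32, and all 15 differences were below 0. Cd8a, the coreceptor of cytotoxic T cells, read 3.86, 4.32 and 5.48 and 2.29, 1.85, 1.78, 3.13 and 1.93, without overlap (−0.80 [−0.69], SE 0.20 [0.22], limma adjusted p = 0.452 [0.954]). Il2rb, a receptor chain for interleukins 2 and 15, differed by −0.61 [−0.38] without overlap. Ncr1, an activating receptor of NK cells, differed by −0.63 [−0.35] and Nkg7, a granule protein, by −0.44 [−0.30], both with overlap.

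**Figure D3:**
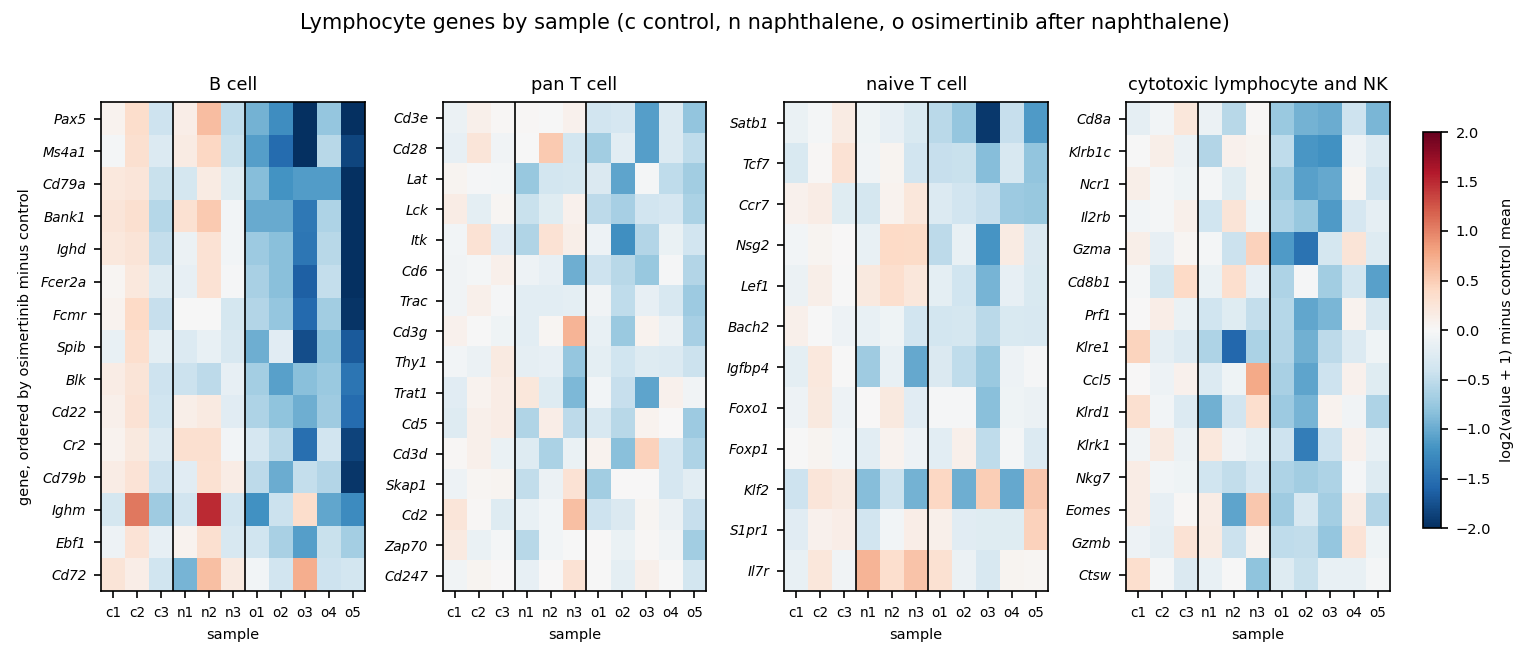
Heat map of B cell, pan T cell, naive T cell and cytotoxic or NK cell genes, those reported here, in each sample, as log2(value + 1) minus the mean of the 3 controls, with colours limited to differences of 2 in either direction. The B cell block is mostly below the control mean in all 5 osimertinib samples, with a list median of −1.10. The other blocks are paler, with list medians of −0.32 (pan T cell), −0.37 (naive T cell) and −0.49 (cytotoxic or NK cell).

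Club cell genes lay lower in the osimertinib samples, which had had naphthalene before. Of 20 genes, 11 stood below every control and none above (against 3.43% and 2.91% of all genes). With the 3 samples the counts were 14 and 0 (against 8.44% and 6.69%). The list medians were −0.64 and −0.54, and −0.66 relative to the median gene under equal totals. Over the naphthalene samples the list median against control was −0.38. Scgb1a1, the secretoglobin that defines the club cell, read 12579, 10676 and 10078 in control, 3965, 7494 and 8387 after naphthalene alone and 7664, 1737, 3484, 5524 and 4946 in osimertinib samples. Every osimertinib sample was below every control, with osimertinib 2 the lowest, and the difference of −1.41 (SE 0.46 [0.32]) did not pass in limma (adjusted p = 0.726 [1.00]) or DESeq2 (0.128 [0.0938]), and was −0.90 with the 3 samples. Cyp2f2, the enzyme that activates naphthalene, read 1475, 1178 and 1244 and 948, 522, 283, 839 and 663, also without overlap (−1.11 and −0.68).

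The club cell genes that fell in DESeq2 were Pon1, Cldn10 and Aldh1a7, in both sets of samples. Pon1 (paraoxonase 1) read 36.3, 24.2 and 29.3 in control, 20.2, 20.6 and 30.7 after naphthalene alone and 15.5, 7.94, 5.79, 12.2 and 12.3 in osimertinib samples (DESeq2 adjusted p = 0.000885 and 1.87e-05, with limma differences of −1.45 and −1.10). Cldn10, a tight junction claudin, read 15.001, 12.8 and 12.03 and 8.47, 4.5002, 7.04, 7.52 and 6.53 (DESeq2 adjusted p = 0.00117 and 0.00377, limma differences −0.89 and −0.75). Aldh1a7, an aldehyde dehydrogenase, read 77.4, 61.5 and 66.5 and 48.7, 39.7, 54.97, 42.7 and 44.1 (DESeq2 adjusted p = 0.00887 and 0.00103, limma differences −0.56 and −0.58). Hp, haptoglobin, differed by −0.53 and −0.43, below every control in both sets. The genes of ciliated cells, the other main cell of the small airway, gave no gene out of 18 that stood apart from the controls in either set. Over all genes 2.91% stood above and 3.43% below, and 6.69% and 8.44% with the 3 samples. The list medians were 0.03 and 0.08. With equal totals the first median was −0.34, or 0.01 relative to the median gene, and without osimertinib 4 it was −0.081. Of these genes, Dynlrb2 and Cfap126, parts of the cilium, differed by 0.40 [0.18] and 0.37 [0.12], Tppp3, a tubulin-binding protein, by 0.20 [0.13] (−0.17 with equal totals, 0.18 relative to the median gene), and Deup1, needed for centriole amplification, by −0.38 [−0.59].

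Surfactant and other genes of alveolar type 2 cells lay higher. Of 16 genes, 11 stood above every control and none below (against 2.91% and 3.43% of all genes). With the 3 samples the counts were 12 and 0 (against 6.69% and 8.44%). All 16 differences were above 0, with medians of 0.49 and 0.28, and 0.46 above the median gene under equal totals. After naphthalene alone the list median against the same controls was 0.34, with all 16 above 0. Sftpd, surfactant protein D, read 294, 234 and 270.2 in control and 332, 488, 649.8, 368 and 394 in osimertinib samples. The groups did not overlap, and Sftpd rose in DESeq2 in both sets (adjusted p = 0.0444 and 0.0105, with limma differences of 0.71 and 0.46). Slc34a2, the phosphate transporter of these cells, read 1691, 1564 and 1602 and 1951, 3092, 2798, 2301 and 2209.8, and rose in DESeq2 with all 5 (adjusted p = 0.0409) but not with the 3 (0.0625), with limma differences of 0.59 and 0.41. Sftpc read 6922, 5939.6 and 6527 and 6977, 9214, 17256, 7814 and 8628, without overlap and with the highest value in osimertinib 3 (0.55 [0.27], SE 0.39 [0.26], limma adjusted p = 1.00 [1.00]). Napsa, a protease that processes surfactant proteins, and Lamp3, a lamellar body protein, stood above every control by 0.52 and 0.57, and by 0.35 and 0.32 with the 3 samples. Lyz2, listed here, is also expressed by macrophages, whose genes lay higher in the same samples, and their part in these values was not tested.

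Genes of alveolar type 1 cells, which form the gas exchange surface, seldom stood apart. None of 14 stood apart from the controls with all 5 samples (all genes: 2.91% above and 3.43% below). With the 3 samples 1 stood above and 1 below (all genes: 6.69% and 8.44%). The medians were −0.09 and −0.04. Ager read 787, 756 and 820.3 in control and 631, 577, 631, 769 and 883 in osimertinib samples (−0.19 [−0.06], SE 0.15 [0.14]). Akap5, a kinase anchor, Vegfa, the endothelial growth factor, Pdpn (podoplanin) and Aqp5, a water channel, differed by −0.37 [−0.24], −0.23 [−0.06], −0.24 [−0.16] and −0.20 [−0.22], all with overlap. Of 11 genes of injured or transitional epithelium 2 stood above every control, Areg and Itgb6, and none below (all genes: 2.91% and 3.43%). With the 3 samples 2 stood above and 2 below (all genes: 6.69% and 8.44%). The medians were 0.16 and 0.02, and −0.19 with equal totals (0.15 relative to the median gene). Itgb6, a subunit of the integrin that activates TGF-beta, differed by 0.20 [0.26] (−0.16 with equal totals, 0.18 relative to the median gene). Plaur, the urokinase receptor, differed by 0.27 [0.25] with overlap (−0.08 with equal totals, 0.26 relative to the median gene). Lgals3 (galectin 3) read 68.4, 56.8 and 56.5 and 67.8, 64.3, 235, 70.2 and 61.4, with osimertinib 3 far above the rest, and its difference was 0.49 with all 5 samples and 0.14 with the 3.

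**Figure D4:**
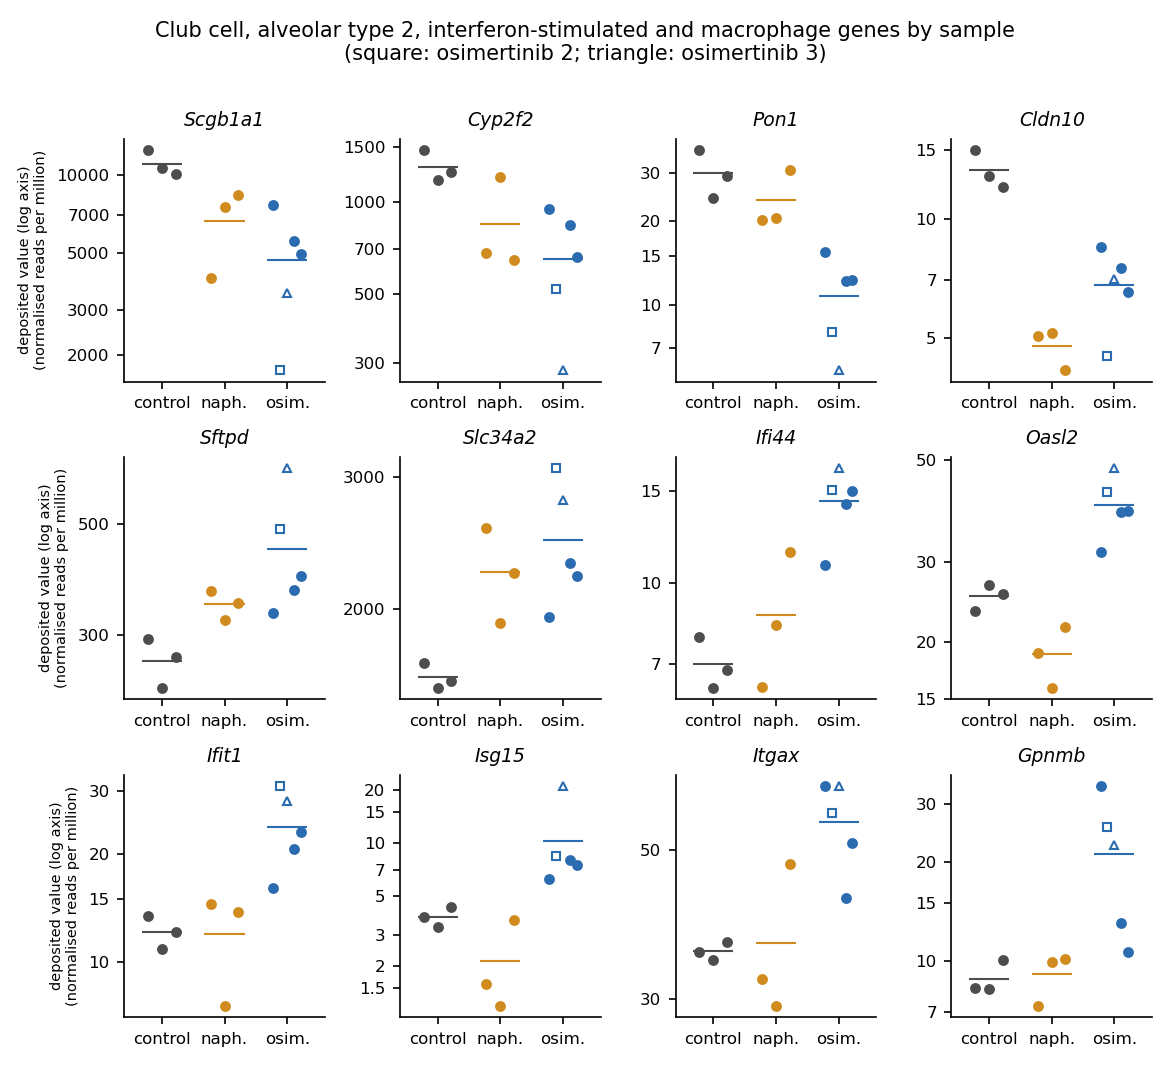
Normalised CPM, on a log axis, of the club cell genes Scgb1a1, Cyp2f2, Pon1 and Cldn10, the type 2 genes Sftpd and Slc34a2, the interferon-stimulated genes Ifi44, Oasl2, Ifit1 and Isg15 and the macrophage genes Itgax and Gpnmb in each sample, with the group mean as a line. In all 12 genes the osimertinib samples lie wholly below (club cell genes) or wholly above (the other genes) the controls, and Isg15 is highest in osimertinib 3.

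Interferon-stimulated genes lay higher. These genes carry out antiviral defence, and many are driven by the factor ISGF3, which binds a pair of GAAA blocks (the interferon-stimulated response element). Of 23 genes, all had a difference above 0, 9 stood above every control and none below (against 2.91% and 3.43% of all genes), with a list median of 0.63. With osimertinib 1, 4 and 5 the count above every control was 10 (against 6.69%), 22 differences were above 0 and the median was 0.37. Relative to the median gene under equal totals it was 0.64. In the naphthalene samples the list median against control was −0.19. DESeq2 called 3 genes higher with all 5 samples (against 0.26% of all genes) and 5 with the 3 (against 0.321%). Several of these genes were highest in osimertinib 3, the sample that also had the highest neutrophil gene sum (699, against 122 to 246 in the other osimertinib samples), and its part in the list median was not tested beyond leaving it out.

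The letters GAAANNGAAA were searched on both strands of RefSeq promoters of GRCm38.p6, from 250 bases before to 50 after the start, counting overlapping matches. They occurred in 1131 of 32851 promoters (3.44%), or in 1079 of 27025 genes (3.99%). Of the 23 interferon-stimulated genes 14 were in the table, and 8 of these held the letters: Isg15, Ifit1, Ifit3, Oas1a, Oas3, Rsad2, Stat2 and Bst2. Ifi44 and Oasl2, which rose in DESeq2, did not hold them in this window. A match is a stretch of letters, not a measured binding site. Among the 4 genes of the list with the smallest p (Ifi44, Oasl2, Ifit1 and Isg15), only Isg15 and Ifit1 held the letters. Their promoters are shown for that reason. That of Isg15 is chr4:156200819-156201068, minus strand, with matches beginning 78, 72 and 66 bases before the start. That of Ifit1 is chr19:34640639-34640888, plus strand, with matches beginning 104 and 85 bases before the start. The 250 bases before the start are printed 5′ to 3′ with the matches in capitals.
Isg15: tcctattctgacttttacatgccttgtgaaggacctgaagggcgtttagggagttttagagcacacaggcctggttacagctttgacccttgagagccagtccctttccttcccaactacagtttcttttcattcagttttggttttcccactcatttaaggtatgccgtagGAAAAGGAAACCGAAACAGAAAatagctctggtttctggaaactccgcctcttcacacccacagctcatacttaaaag
Ifit1: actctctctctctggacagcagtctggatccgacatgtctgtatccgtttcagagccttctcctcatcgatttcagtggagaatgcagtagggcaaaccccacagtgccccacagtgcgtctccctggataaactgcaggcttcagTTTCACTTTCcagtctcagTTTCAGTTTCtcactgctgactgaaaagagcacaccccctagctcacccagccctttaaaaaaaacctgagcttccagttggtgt

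Ifi44 read 7.898, 6.29 and 6.82 in control, 6.31, 8.31 and 11.5 after naphthalene alone and 10.8, 15.1, 16.7, 14.2 and 15.1 in osimertinib samples. All osimertinib samples were above the controls and Ifi44 rose in DESeq2 (adjusted p = 0.000108 and 0.00137) with limma differences of 0.93 (SE 0.19, adjusted p = 0.313) and 0.84 (SE 0.20, adjusted p = 0.616). Oasl2, of the oligoadenylate synthetase family, read 23.4, 26.7 and 25.5 and 31.5, 42.6, 48.2, 38.6 and 38.6 and rose in DESeq2 (adjusted p = 0.00449 and 0.00924, with limma differences of 0.63 and 0.50). Ifit1, which binds foreign RNA caps, read 13.4, 10.9 and 12.1 and 16.03, 30.97, 27.98, 20.7 and 22.99 and rose in DESeq2 (adjusted p = 0.0149 and 0.0394, with limma differences of 0.88 and 0.66). Isg15, a ubiquitin-like modifier, read 3.81, 3.34 and 4.34 and 6.26, 8.47, 21.1, 7.98 and 7.46, without overlap and with osimertinib 3 far above the rest. Its difference was 1.10 (SE 0.34 [0.26]) with all 5 samples, where DESeq2 did not pass (0.07001), and 0.77 with the 3, where Isg15 rose in DESeq2 (adjusted p = 0.0138).

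The interferon-induced GTPases and related genes, which interferon gamma induces most strongly, mostly overlapped the controls. Of 18 genes 1 stood above every control, Gbp3, and none below (all genes: 2.91% and 3.43%). With the 3 samples 1 stood above and 2 below (all genes: 6.69% and 8.44%). The list median was 0.16 with all 5 samples, −0.07 with the 3 and −0.21 with equal totals (0.13 relative to the median gene). The naphthalene list median was −0.41. Gbp3, a guanylate-binding protein, read 17.7, 18.1 and 16.2 and 19.9, 28.1, 26.1, 23.4 and 26.99 (0.49 and 0.40). Gbp6 and Gbp9 of the same family differed by 0.37 [0.25] and 0.17 [0.08] with overlap (−0.20 for Gbp9 with equal totals, 0.15 relative to the median gene), and Iigp1, an immunity-related GTPase, by 0.42, and 0.09 with the 3 samples. Of 10 genes of MHC class II presentation, Ctss stood above every control and H2-Ob, the chain of the DO modulator found in B cells, below (30.3, 27.1 and 19.2 and 17.3, 11.4, 12.5, 16.6 and 6.06). Over all genes 2.91% stood above and 3.43% below. With the 3 samples 1 of the list stood above and 3 below (all genes: 6.69% and 8.44%). The list had medians of 0.15 and 0.05, and −0.21 with equal totals (0.14 relative to the median gene). H2-Eb1, a class II chain, differed by 0.25 [0.05] (−0.12 with equal totals, 0.22 relative to the median gene), and H2-DMb1, a peptide-exchange chain, by 0.36 [0.15], both with overlap.

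Macrophage genes lay higher in both lists used. Of 15 alveolar macrophage genes, 7 stood above every control and none below (against 2.91% and 3.43% of all genes). With the 3 samples the counts were 8 and 1 (against 6.69% and 8.44%). The medians were 0.46 and 0.28, and 0.45 above the median gene under equal totals. DESeq2 called 3 of these genes higher with all 5 samples and none with the 3 (against 0.26% and 0.321% of all genes). Itgax, the integrin CD11c, read 35.3, 34.4 and 36.6 in control and 62.4, 56.9, 62.4, 42.5 and 51.2 in osimertinib samples and rose in DESeq2 with all 5 (adjusted p = 0.0282, 0.143 with the 3), with limma differences of 0.61 and 0.53. Plet1 and Atp6v0d2, the latter a subunit of the lysosomal proton pump, rose in DESeq2 with all 5 (adjusted p = 0.0411 and 0.0377) and not with the 3 (0.0986 and 0.0513), with limma differences of 0.60 [0.41] and 0.75 [0.53]. Chil3, a chitinase-like protein of macrophages, read 285, 258 and 292 and 419, 552, 761, 365 and 415 without overlap.

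Of 20 genes of monocyte-derived and lipid-associated macrophages, 8 stood above every control and none below in both sets (all genes: 2.91% and 6.69% above). The medians were 0.41 and 0.23. Ms4a7, a marker of monocyte-derived macrophages, read 1.53, 1.11 and 1.07 in control and 3.97, 3.18, 6.68, 3.52 and 2.73 in osimertinib samples and rose in DESeq2 in both sets (adjusted p = 0.0102 and 0.0196, with limma differences of 1.12 and 0.97). Gpnmb, a glycoprotein of lipid-laden macrophages, read 8.24, 8.19 and 10.03 and 34.05, 25.4, 22.5, 13.04 and 10.6, without overlap (1.06 [0.87], SE 0.31 [0.34], limma adjusted p = 0.625 [1.00]). Spp1 (osteopontin) read 23.8, 34.8 and 31.7 and 57.6, 57.4, 43.3, 42.1 and 39.8 without overlap (0.66 and 0.61), and Trem2, a lipid-sensing receptor, read 1.42, 1.11 and 1.54 and 4.35, 2.65, 5.52, 3.06 and 1.93 (0.88 and 0.77). None of these 3 passed in limma or DESeq2. Mmp12 and Ctsd above belong to these lists too.

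Of 13 dendritic cell genes, 4 stood above every control and 1 below (against 2.91% and 3.43% of all genes). With the 3 samples the counts were 5 and 1 (against 6.69% and 8.44%). The medians were 0.34 and 0.15. Ccl22, a chemokine of activated dendritic cells, read 2.84, 3.93 and 3.68 and 4.35, 6.35, 7.22, 7.32 and 10.1, Fscn1 (fascin) differed by 0.51 [0.39] and Itgae, the integrin CD103, by 0.48 [0.31], while Ccr7 lay below the controls as given above. Of 10 neutrophil genes 1 stood above every control in both sets, Lcn2, and none below (all genes: 2.91% and 6.69% above). The list median of 0.32 was −0.21 with osimertinib 1, 4 and 5. The summed level of the neutrophil list was 174, 161 and 123 in control and 156, 246, 699, 197 and 122 in osimertinib samples, so osimertinib 3 alone was far above the rest. Lcn2 (lipocalin 2, of neutrophils and injured epithelium) read 58.8, 42.96 and 43.98 and 66.9, 137, 268, 87.3 and 62.8, with differences of 1.13 and 0.56. Ltf (lactoferrin), Clec4d, a C-type lectin, and Cxcr2, a chemokine receptor, differed by −0.82 [−0.57], 0.51 [0.23] and 0.35 [0.18], all with overlap.

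Among cytokine, chemokine and acute phase genes, 15 of 28 were kept, and 3 stood above every control and 1 below. With the 3 samples the counts were 3 and 2. Over all genes the shares were 2.91% and 3.43%, and 6.69% and 8.44% with the 3. The list medians were 0.46 and 0.14. Saa3, an acute phase protein of the lung, read 0.227, 0.458 and 0.535 in control and 1.68, 1.85, 5.35, 7.32 and 2.67 in osimertinib samples. The groups did not overlap and Saa3 rose in DESeq2 (adjusted p = 0.000373 and 0.00148, with limma differences of 1.62 and 1.63). Il33, an alarmin that type 2 cells also express, differed by 0.99 and 0.55 with overlap. Il6 and Ccl2 had means under 1 and were not tested, at 0.1705 to 0.327 in control and 0 to 1.16 in osimertinib samples for Il6 and 0.341 to 0.869 and 0.305 to 1.51 for Ccl2. Of 15 complement genes 3 stood above every control and none below, 5 with the 3 samples (all genes: 2.91% and 6.69% above). The medians were 0.35 and 0.31, and −0.02 under equal totals (0.33 relative to the median gene). Cfb, factor B of the alternative pathway, read 17.8, 18.1 and 16.4 and 23.4, 32.8, 19.8, 27.2 and 42.1, and rose in DESeq2 with the 3 samples (adjusted p = 0.0265, 0.146 with all 5), with limma differences of 0.66 and 0.75. The chains of C1q, made by macrophages, differed by 0.60 [0.39] (C1qa), 0.70 [0.51] (C1qb) and 0.77 [0.54] (C1qc), each with osimertinib 1 under control 2.

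The receptor that osimertinib inhibits overlapped between the groups at the RNA level. Egfr read 37.3, 34.4 and 40.4 in control and 36.4, 39.97, 26.6, 40.6 and 51.8 in osimertinib samples (0.04 [0.18], SE 0.17 [0.13]), a difference that was −0.33 with equal totals, or 0.02 relative to the median gene. Of 12 family and ligand genes 1 stood above every control and 1 below (against 2.91% and 3.43% of all genes). With the 3 samples the counts were 1 and 2 (against 6.69% and 8.44%). The medians were −0.03 and 0.04. Areg (amphiregulin), a ligand released on injury, read 2.05, 1.24 and 2.67 and 3.59, 4.24, 12.5, 2.99 and 4.598, without overlap and with osimertinib 3 far above the rest (1.01 and 0.68, limma adjusted p = 0.773 and 1.00). Btc (betacellulin), another ligand, lay below every control (3.35, 2.42 and 2.41 and 2.37, 1.85, 1.87, 1.397 and 1.799, −0.38 and −0.39) and was named after its values were seen. Hbegf, a further ligand, differed by −0.41 [−0.31], Erbb3, a partner receptor, by 0.19 [0.10] (−0.18 with equal totals, 0.17 relative to the median gene) and Errfi1, a feedback inhibitor of the receptor, by 0.54 [0.54], all with overlap.

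Of 18 genes of ERK feedback and output, downstream of the receptor, 1 stood above every control and 3 below (against 2.91% and 3.43% of all genes), 2 and 4 with the 3 samples (against 6.69% and 8.44%), with medians of −0.07 and 0.02. Dusp6, the ERK phosphatase, read 49.4, 58.1 and 57.2 in control and 70.5, 61.7, 59.9, 57.2 and 66.3 in osimertinib samples (0.20 [0.23], SE 0.12 [0.13]), and Spry4, an inhibitor of the pathway, 13.1, 24.1 and 21.8 and 28.1, 16.4, 14.1, 13.8 and 29.2 (0.02 [0.23], SE 0.31 [0.33]). Both overlapped. With equal totals they were −0.17 and −0.34, or 0.18 and 0.01 relative to the median gene. Etv5, an ERK-responsive factor that type 2 cells also need, differed by 0.26 [0.11] without overlap (−0.11 with equal totals, 0.24 relative to the median gene). Dusp4, another phosphatase of the pathway, differed by −0.30 [−0.15] without overlap, and Il1rl1, the receptor of interleukin 33, by 0.31 [0.21] with overlap. Of 18 immediate early genes 2 stood below every control and none above in both sets (against 3.43% and 8.44% of all genes below), with medians of −0.25 and −0.24. After naphthalene alone the list median against the same controls was −0.44, with 1 of the 18 above 0.

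Nr4a1, an orphan nuclear receptor and immediate early gene, read 42.8, 94.4 and 71.7 in control, 34.1, 33.2 and 61.04 after naphthalene alone and 24.4, 15.4, 25.5, 24.3 and 23.7 in osimertinib samples. It fell in DESeq2 (adjusted p = 1.55e-05 and 0.000203) with limma differences of −1.53 (SE 0.26, adjusted p = 0.313) and −1.42 (SE 0.27, adjusted p = 0.4104). Every osimertinib sample lay below every control. Egr1, an immediate early transcription factor, read 40.7, 96.8 and 63.2 and 13.5, 19.1, 11.1, 37.6 and 11.7, without overlap. It fell in DESeq2 with all 5 samples (adjusted p = 0.0317) and did not pass with the 3 (0.492), with limma differences of −1.86 and −1.74. Fosb and Egr3 differed by −0.68 [−0.54] and −0.64 [−0.37], both with overlap.

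Glucocorticoid-responsive genes lay higher as a list but with a wide spread. Of the 14 genes kept, 7 also belong to other lists, among them Cdkn1a, Lcn2 and Angptl4. Of 14 genes, 3 stood above every control and none below, 7 with the 3 samples (all genes: 2.91% and 6.69% above). The medians were 0.54 and 0.60, and 0.55 above the median gene under equal totals. DESeq2 called Fkbp5 alone of this list, a chaperone of the steroid receptor named after its values were seen, and only with the 3 samples (adjusted p = 0.0129). It read 8.58, 10.1 and 9.62 in control and 13.1, 14.8, 8.64, 15.7 and 21.3 in osimertinib samples, with osimertinib 3 among the controls (0.54 and 0.74). Cdkn1a, the cell cycle inhibitor p21 and also a p53 target, read 23.8, 23.3 and 35.6 and 39.2, 37.1, 42.7, 35.8 and 57.8, without overlap (0.61 [0.66], SE 0.18 [0.20], limma adjusted p = 0.613 [0.848]). Sgk1, a steroid-induced kinase, read 49.9, 63.7 and 68.9 and 76.9, 77.6, 117, 71.2 and 74.3, without overlap and with osimertinib 3 highest, and Angptl4, a lipase inhibitor, differed by 1.36 [1.24] (SE 0.51 [0.60]) with overlap.

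Of 16 p53 targets 2 stood above every control and none below, 4 with the 3 samples (against 2.91% and 6.69% of all genes above), with medians of 0.06 and 0.12, and −0.28 with equal totals (0.07 relative to the median gene). Eda2r, a p53-responsive receptor, read 2.05, 1.44 and 2.34 and 2.75, 2.91, 3.39, 3.59 and 3.86, without overlap (0.55 [0.58], SE 0.27 [0.32]). Trp53inp1 and Ccng1 differed by 0.22 [0.22] and 0.15 [0.07] (−0.15 and −0.22 with equal totals, 0.20 and 0.12 relative to the median gene). Of 14 metallothionein and NRF2 target genes the 2 metallothioneins alone stood above every control in both sets (against 2.91% and 6.69% of all genes). None stood below. The list medians were 0.08 and 0.03, and −0.27 with equal totals (0.07 relative to the median gene). Mt2 read 4.49, 2.95 and 2.74 in control and 5.57, 13.8, 39.7, 6.32 and 7.996 in osimertinib samples, and rose in DESeq2 with all 5 (adjusted p = 0.0493, 0.0776 with the 3). Mt1, also a binder of zinc, read 18.4, 14.3 and 13.1 and 23.7, 31.2, 83.2, 23.3 and 22.7, and rose in DESeq2 with the 3 (adjusted p = 0.0491, 0.164 with all 5). In both, osimertinib 3 was the highest, and the limma differences of 1.48 and 1.03 were 0.81 and 0.59 with osimertinib 1, 4 and 5. Gclc, an enzyme of glutathione synthesis, differed by 0.53 [0.29] and Gstm1, a glutathione transferase, by −0.22 [−0.15], both with overlap.

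Mitochondrially encoded transcripts gave 1 limma call, with osimertinib 1, 4 and 5. That gene, mt-Co2, a subunit of cytochrome c oxidase, read 8.86, 10.1 and 10.4 in control samples, is listed at 0 in osimertinib 1, 3, 4 and 5 and in all 3 naphthalene samples, and read 39.97 in osimertinib 2. The difference was −3.43 (SE 0.18, limma adjusted p = 1.66e-05), a size that depends on the pseudocount, and −2.36 with all 5 samples (adjusted p = 0.974). None of the other 14 listed mitochondrial genes stood apart from the controls, and the list median was −0.07 with all 5 samples. The 12S ribosomal RNA mt-Rnr1 read 57.2, 57.03 and 60.02 and 57.3, 26723, 314, 54.3 and 69.2, so the DESeq2 call with all 5 samples (adjusted p = 0.0248) rests on osimertinib 2, and with the 3 samples the adjusted p was 1.00. The 16S RNA mt-Rnr2 differed by 1.39 and 0.10, and mt-Nd4l, a subunit of complex I, by −0.23 [−0.32]. ENSMUSG00000119584 likewise passed in DESeq2 with all 5 samples (adjusted p = 5.97e-07) and not with the 3 (0.974).

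The remaining genes named by rank are single genes of varied roles. Among those that rose in DESeq2 in both sets were Pfkfb2, a regulator of glycolysis, at 39.6, 38.3 and 35.8 in control and 49.8, 50.6, 53.7, 49.1 and 57.1 in osimertinib samples, and Lilrb4a, an inhibitory receptor of myeloid cells, at 23.6, 23.4 and 19.9 and 33.2, 35.5, 36.4, 29.8 and 30.2. Rap1gap, which switches off the GTPase RAP1, read 25.2, 20.6 and 20.4 and 30.4, 35.7, 42.9, 33.3 and 35.05. Scn3b, a sodium channel subunit, and Ccdc141 differed by 0.48 [0.54] and 0.61 [0.50] in limma and rose in DESeq2 with adjusted p-values of 0.00391 [0.00103] and 0.000632 [0.000761]. With the 3 samples Mcf2l, a guanine nucleotide exchange factor, was called higher by edgeR (adjusted p = 0.0416) and read 42.5, 45.4 and 49.3 and 64.4, 63.3, 38.4, 69.8 and 74.3, with osimertinib 3 below the controls and the other 4 above. Igfbp3, a binder of insulin-like growth factors, read 44.1, 37.9 and 31.7 and 56.2, 56.6, 29.8, 53.9 and 58.8, and osimertinib 3 was again below the controls while the other 4 were above. Lgals3bp, a galectin-binding glycoprotein, differed by 0.54 and 0.61, and 1700023H06Rik by 0.70 and 0.92.

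Among the genes that fell in DESeq2 in both sets were Acap1, a GTPase-activating protein of lymphocytes, at 16.7, 16.2 and 11.3 in control and 9.31, 5.82, 8.197, 7.78 and 5.53 in osimertinib samples, Wnt7a, a ligand of the WNT family, at 11.6, 12.4 and 9.62 and 6.64, 6.88, 6.59, 7.25 and 7.53, and Lypd2, a small protein of airway epithelium, at 17.4, 12.2 and 12.4 and 7.94, 6.62, 3.74, 8.38 and 5.86. Prickle1, of planar cell polarity, fell in DESeq2 with all 5 samples (adjusted p = 0.0362, 0.07396 with the 3). Tbc1d10c, a regulator of lymphocyte signalling, Ldhb, a lactate dehydrogenase subunit, 5330417C22Rik and Ralgps2 stood among the lowest p-values of the 3-sample fit, with differences of −0.82, −0.46, −0.49 and −0.60 and with −0.58, −0.35, −0.67 and −0.66 over all 5. Of the other DESeq2 calls, named after their values were seen, Mdk (midkine, a growth factor of injured tissue) read 2.05, 2.29 and 2.07 and 4.43, 3.44, 6.77, 5.25 and 5.26 and rose (adjusted p = 0.000666 and 0.000973), and Ccn1, a matricellular protein, read 73.7, 159 and 100.3 and 48.5, 36.3, 33.6, 55.2 and 51.97 and fell (adjusted p = 0.00759 and 0.0469).

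**Figure D5:**
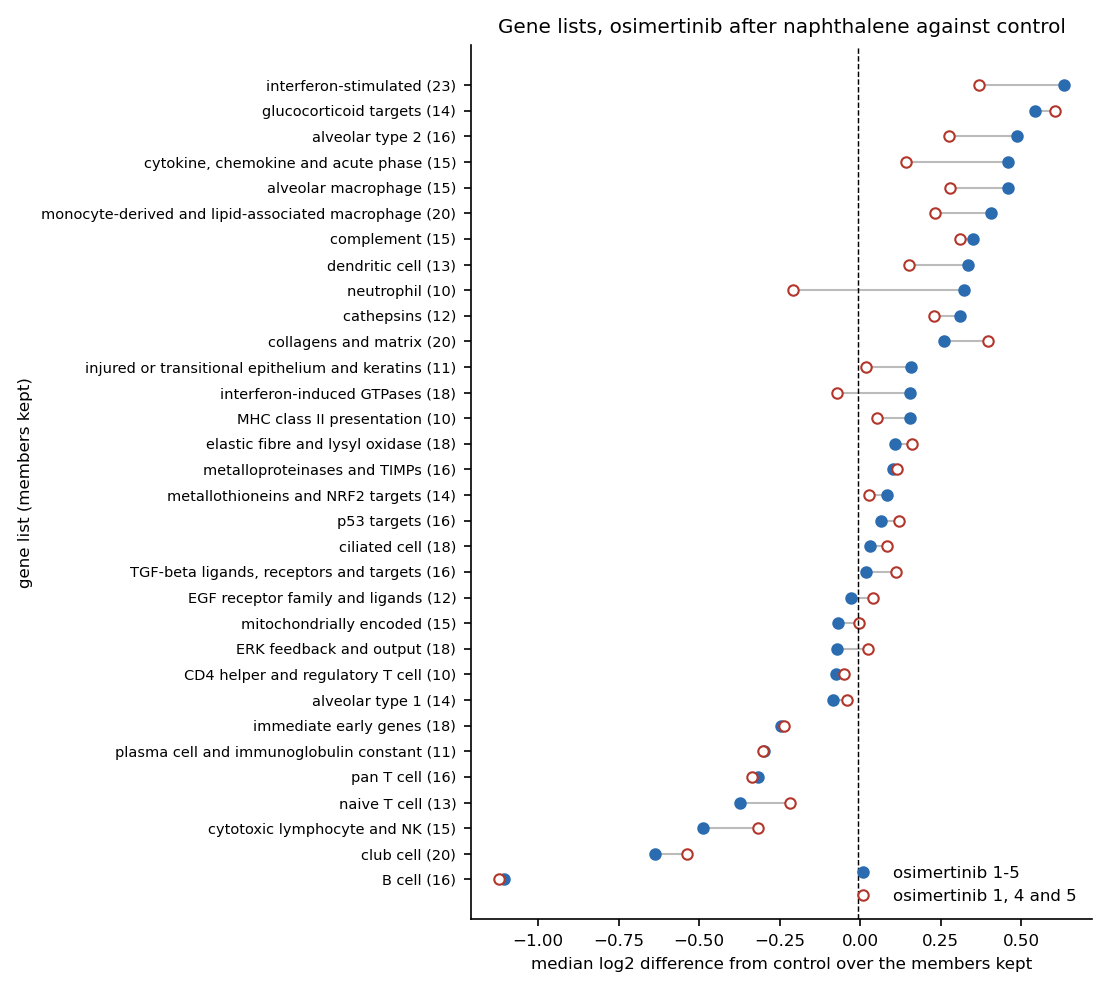
Median difference between osimertinib and control (log2(value + 1)) for the 32 lists described, as filled points for osimertinib 1 to 5 and open points for osimertinib 1, 4 and 5, with the median gene as a dashed line. The B cell list is lowest in both (−1.10 and −1.12), the club cell list follows (−0.64 and −0.54), the interferon list is highest with all 5 (0.63, 0.37 with the 3), and the glucocorticoid list is highest with the 3 (0.60).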

How the data were processed

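Lung RNA was depleted of ribosomal RNA and sequenced from directional libraries, per the labels' protocols. The authors deposited a normalised signal per Ensembl gene (CPM of a library size times a normalisation factor), and the submitters' processing notes name Trimmomatic 0.38, Bowtie2, RSEM 1.3.0, edgeR and the build GRCm39 without roles or settings. All deposited values (100%) were whole multiples of the value of 1 read within 0.01, so whole reads were recovered. The implied factors equalled edgeR's TMM factors within 2.22e-16. One read was worth 0.0568 to 0.459 CPM, which sets the precision of low genes. Intervals cover counting error only. The lowest chi-square per degree of freedom between samples of a group was 3.44, so no sample was counted as a duplicate.

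The table held 23255 genes, of which 23123 were named from GENCODE M21 (GRCm38) and 132 were not. In 55 genes the values were identical to those of another gene. Coordinates and sequences are RefSeq's for GRCm38.p6 and were not converted.

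Genes with a mean of at least 1 over the 11 samples (16225) entered 1 fit of the 3 groups, on log2(value + 1), by limma 3.58.1 under R 4.3.3, using its trend of variance with mean (8 residual degrees of freedom). The fit without osimertinib 2 and 3 had 6. P-values were adjusted over all genes by Benjamini-Hochberg at 0.05. edgeR 4.0.16 (quasi-likelihood) called 1 gene on the recovered reads (4 without osimertinib 2 and 3) and DESeq2 1.42.0 called 75 (88), giving no adjusted p for 83 (13) genes. The fit was also run on simulated reads in which all samples shared a mean profile apart from set changes. Those reads lacked the features of osimertinib 2 and 3, so they cannot show how the fit handles such samples. Lists are described by counts and medians and were not tested as sets.

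Genes named by rank, with a mean of at least 5, were called genes without overlap of the groups, filled up by smallest p to 12 per direction, and likewise up to 8 further ones from the fit of osimertinib 1, 4 and 5. Also named were the 4 members with the smallest p of each of 32 lists, and a fixed set of anchor genes. A few genes reached by these rules are not reported here. Other genes were picked once their values were known, and the text says so or names them only as list members counted. The comparison, its lists and its rules were chosen with earlier results of these data known. The settings tried were a pseudocount of 0.1 or 5, a mean of 5 or no minimum, median-ratio, equal-total and quantile scaling, array weights, no trend, only the groups compared, an added log2 difference of 1, the replicate number as a block, and each sample left out.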

Additional observations from a re-analysis of the deposited data

Results flagged for a closer look

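In 15 of the 154 genes checked, 1 of the 5 osimertinib samples lay far from the other 4, judged by its gap to the nearest sample on the log2(value + 1) scale. For normally distributed values of genes not picked from these data, about 1 group in 20 would do so by chance. Many of the genes checked were picked by p-value in the same samples, so that rate is no measure for this count. Osimertinib 3 was the distant sample in 11 of them and osimertinib 2 in 4. All values are normalised CPM.

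Osimertinib 3 was high for Areg at 12.47 (2.993 to 4.598 in the other 4), Lgals3 at 235.4 (61.44 to 70.16), Sgk1 at 117.3 (71.16 to 77.56), Mt1 at 83.22 (22.72 to 31.24), Itgae at 10.69 (5.03 to 5.653), Isg15 at 21.12 (6.259 to 8.471) and Tgfbi at 75.2 (42.38 to 48.48). It was low for Mcf2l at 38.4 (63.27 to 74.3), Igfbp3 at 29.85 (53.87 to 58.77), Bach2 at 18.98 (21.45 to 22.41) and Col1a1 at 105.4 (233.4 to 321.6). This sample also held the highest neutrophil gene sum and the largest share of reads in ENSMUSG00000118841 among the samples compared.

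Osimertinib 2 was high for Il2ra at 3.706 (1.515 to 1.663), for mt-Co2 at 39.97 (the other 4 listed at 0) and for mt-Rnr1 at 26720 (54.34 to 313.7). It was low for Nr4a1 at 15.35 (23.72 to 25.48). The part of its high share of ENSMUSG00000119584 in these values was not tested.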

How the results depend on the processing

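The number of genes called by limma, 1 for osimertinib 1 to 5 and 2 for osimertinib 1, 4 and 5, changed with the setting. For all 5 samples it was 88 with equal totals (9 higher, 79 lower), 149 with array weights, 0 without the mean-variance trend, 75 by DESeq2 and 0 to 2 with 1 sample left out (0 without any control, osimertinib 1 or osimertinib 5). In the fits of osimertinib 1, 4 and 5 it was 2, or 3 with control alone, 4 by edgeR and 88 by DESeq2, and 1 with equal totals, 39 with array weights, 1 without the trend and 1 with 1 sample left out. Replicate numbers did not pair the samples: same-numbered control and osimertinib samples correlated at −0.038, 0.075 and −0.152, and not every sample correlated best with its own number. With the replicate block 0 genes were called in either set.

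Equal totals moved the median gene to −0.35 with all 5 samples and to −0.0058 with osimertinib 1, 4 and 5. Before that scaling the values summed to 1398850 in osimertinib 2 and 1159140 in osimertinib 3. In the other osimertinib and control samples the sums were 642771 to 679607. With all 5 samples, 12 of 32 list medians and 17 named genes turned sign under equal totals, each of them above the median gene of that setting. The genes were Col14a1 (−0.052), Tppp3 (−0.17), Itgb6 (−0.16), Plaur (−0.084), Erbb3 (−0.18), Etv5 (−0.11), Trp53inp1 (−0.15), Ccng1 (−0.22), H2-Eb1 (−0.12), Gbp9 (−0.20), Fbn1 (−0.014), Sparc (−0.035), Tgfbr1 (−0.093), Egfr (−0.33), Fn1 (−0.12), Dusp6 (−0.17) and Spry4 (−0.34). List medians turned 37 further times over the other settings. In that count, 4 turns with osimertinib 1, 4 and 5 enter again, with the same medians, for the fit without the naphthalene samples. Among the medians that turned were those of plasma cell genes (0.0052 with the replicate block, 0.017 without control 2), CD4 helper genes (0.023 without control 2), TGF-beta genes (−0.040 without control 1), ciliated cell genes (−0.081 without osimertinib 4) and neutrophil genes (−0.058 without osimertinib 3). Genes near 0 turned elsewhere too, and the cause was not tested. Egfr was −0.13 with the replicate block and −0.071 to 0.16 with 1 sample left out. Il7r was 0.012 with median-ratio and 0.010 with quantile scaling, 0.064 with array weights, 0.021 by edgeR, 0.029 by DESeq2, −0.083 to 0.11 with 1 sample left out, 0.13 with osimertinib 1, 4 and 5, and 0.15 by edgeR and DESeq2 there. Spry4 was −0.026 with array weights, −0.025 with the replicate block and −0.24 to 0.18 with 1 sample left out. The other genes named by the fixed rule kept their direction in the settings run for them, and genes named after their values were seen were not run.

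Among the osimertinib and control samples, depth limits low genes most in osimertinib 2, with 2965328 reads outside ENSMUSG00000119584. The naphthalene samples held fewer still, 2018541 to 2686323, so their low values are the least precise.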
